A study of Drosophila melanogaster with 3 samples.

Results

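The distal crp peaks that carry the AP-4 E-box are summits of the reproducible peak list that lie away from promoters and close to the hexamer CAGCTG. A summit, the position of highest signal inside a peak, was counted when it lay more than 500 bp from the starts of all protein-coding genes and had CAGCTG whole within 50 bp. Of the 5460 summits that passed the authors' threshold on the irreproducible discovery rate (IDR, a measure of how far peak ranks recur between replicates), 1485 were distal, and 368 of these carried the site. These 368 summits made up 24.8% of distal and 6.74% of all IDR summits (95% Wilson intervals 22.7 to 27.0% and 6.10 to 7.44%), and they fell into 363 distinct regions. The background was 28.6% of all IDR summits with the site. The rule used place and sequence and no signal, so signal, recurrence and place within the distal class could be compared with those of the 1117 distal summits without the site and the 1192 promoter summits with it.

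The series mapped chromatin bound by crp, the product of the gene cropped, in whole Drosophila melanogaster embryos. All 3 biological replicates came from a single transgenic line, stated to express crp with GFP fused to its C terminus, and were precipitated with an antibody to GFP. The embryos were of both sexes, pooled, and 0 to 24 h old, and sonication cut their chromatin to between 200 and 800 bp. The sources do not say if GFP sits on an extra crp copy or on the endogenous locus, and a control library was not analysed here. With 1 group and no untagged line there was no comparison between conditions, and every value is an average over embryonic stages and tissues, in which fewer cells with a bound site and less binding per cell cannot be told apart. The data were peak lists without reads, so the depth is unknown.

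AP-4 proteins are basic helix-loop-helix factors, which bind DNA as dimers with the basic region of each partner in contact with one side of an E-box. The AP-4 family prefers the palindromic E-box with a GC centre, CAGCTG, in which both partners meet the same letters. In flies crp is known for its part in the growth of terminal tracheal cells, and distal peaks of such factors are of interest because enhancers often lie in introns and between genes.

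Windows of 101 bp centred on the summit are printed for 12 of the 368 peaks, on build dm6, plus strand, 5′ to 3′, from the RefSeq copy of the assembly, with every CAGCTG in capitals. Those ranked 1 to 7 among the 368 by IDR signal come first, without E2f2, which ranked 6. They show the site against the summit in the middle of the window and the bases that flank it.
Rab8 (chr3L:19861322-19861422): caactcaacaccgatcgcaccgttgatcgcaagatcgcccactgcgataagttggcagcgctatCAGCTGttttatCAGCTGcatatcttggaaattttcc
mld (chr3R:24586691-24586791): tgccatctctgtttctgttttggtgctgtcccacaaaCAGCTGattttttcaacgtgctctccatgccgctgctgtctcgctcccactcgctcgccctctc
Acf (chr3R:31794679-31794779): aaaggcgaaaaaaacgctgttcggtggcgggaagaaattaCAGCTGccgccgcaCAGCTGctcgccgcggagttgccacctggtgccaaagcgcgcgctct
CG42709 (chr3L:12794676-12794776): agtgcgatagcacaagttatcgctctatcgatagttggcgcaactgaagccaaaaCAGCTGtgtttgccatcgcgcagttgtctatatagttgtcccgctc
Dhc64C (chr3L:4824682-4824782): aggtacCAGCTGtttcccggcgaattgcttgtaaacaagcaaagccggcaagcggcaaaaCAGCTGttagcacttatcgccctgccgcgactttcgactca
ctrip (chr3R:4803412-4803512): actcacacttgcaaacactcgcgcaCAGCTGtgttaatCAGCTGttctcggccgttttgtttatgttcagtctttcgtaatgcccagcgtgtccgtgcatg
The strongest peak inside crp itself and a peak with 3 copies of the site, in Cerk, follow.
crp first intron (chr2L:16286111-16286211): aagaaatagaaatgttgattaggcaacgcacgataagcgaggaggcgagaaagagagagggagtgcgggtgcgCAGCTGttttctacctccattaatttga
Cerk (chr3R:5367669-5367769): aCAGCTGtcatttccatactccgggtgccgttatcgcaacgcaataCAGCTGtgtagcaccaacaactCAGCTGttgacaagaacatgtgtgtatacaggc
Runs of alternating G and A, or C and T on the printed strand, in the same window as the site are shown by weaker peaks at Antp and Eip75B.
Antp (chr3R:7000765-7000865): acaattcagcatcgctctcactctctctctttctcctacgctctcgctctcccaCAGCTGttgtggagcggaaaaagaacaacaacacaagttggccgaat
Eip75B (chr3L:17973011-17973111): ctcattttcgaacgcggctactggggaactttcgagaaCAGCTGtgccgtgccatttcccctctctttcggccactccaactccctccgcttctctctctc
A site with G or C on both sides is shown by a weaker peak in crp and by that in Hr4.
crp, 2702 bp from its start (chr2L:16284978-16285078): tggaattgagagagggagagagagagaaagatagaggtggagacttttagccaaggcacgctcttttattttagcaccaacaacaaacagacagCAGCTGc
Hr4 (chrX:1953064-1953164): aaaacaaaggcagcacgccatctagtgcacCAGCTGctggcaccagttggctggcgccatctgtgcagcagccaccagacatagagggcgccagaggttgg

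The strongest of these peaks lay outside any protein-coding gene, beyond the end of Rab8, which encodes a small GTPase of vesicle traffic to the plasma membrane. Its summit at 3L 19861372 was 8186 bp downstream of the Rab8 start and ranked 26 among all IDR peaks. Relative signal, the authors' peak signal divided by the median of the 5460 strongest peaks of the same replicate, was 22.1, 19.9 and 30.3 in replicates 1, 2 and 3 (24.1 ± 5.45, SD, n = 3). The peak was far above the median of 1 in every replicate and highest in replicate 3. By the annotation of all genes it was not remote from a start site, because the non-coding gene lncRNA:CR45433 starts 86 bp away, with the summit upstream of it.

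The peak at mld was next, in the first intron, 1088 bp downstream of the nearest start (3R 24586741, IDR rank 83). mld encodes a zinc finger protein needed for ecdysone production. Its relative signal was 16.2, 14.6 and 22.2 in replicates 1, 2 and 3 (17.7 ± 4.00, SD, n = 3), again highest in replicate 3. Acf, a subunit of the ISWI chromatin assembly factor, had a peak in its first intron, 748 bp from the start (3R 31794729), with 13.2, 12.8 and 17.1 (14.3 ± 2.37). The peak in CG42709 lay in intron 4 (3L 12794726), with 11.5, 10.4 and 14.1 (SD 1.90). These 4 peaks differed little between replicates 1 and 2, and replicate 3 was the highest for each.

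Some of the peaks further down varied more between the replicates, and others did not. Dhc64C, the heavy chain of cytoplasmic dynein, had a first-intron peak (3L 4824732, 955 bp from the start) with 9.55, 5.24 and 18.5 (11.1 ± 6.75, SD, n = 3). ctrip, an E3 ubiquitin ligase known from the circadian clock, had 9.51, 3.46 and 18.7 (10.6 ± 7.69) at 3R 4803462. For both genes replicate 2 was the lowest by far and replicate 3 the highest. The intergenic peak nearest to E2f2, the repressive E2F factor, had 11.3, 8.58 and 13.7 (11.2 ± 2.58, 2L 21154074), and the intronic peak of pita, a zinc finger insulator protein, 7.87, 7.74 and 11.4 (9.02 ± 2.10). The SD at E2f2 and pita was smaller than the 5.45 at Rab8, but so were their means, against 24.1 at Rab8. Relative to the mean, the spread at E2f2 and pita was about that at Rab8. The peaks of KCNQ, a potassium channel (9.47, 3.85 and 10.6), and of RanBPM, a Ran-binding protein (6.82, 3.75 and 11.2), were once more lowest in replicate 2. KCNQ was named as host, by an intron of 37343 bp, while the start nearest to that summit was that of mlt, 1122 bp away.

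The rest of the 20 strongest peaks that were matched in all replicates lay at genes of varied roles. Atet, an ABC transporter that moves ecdysone, had 6.31, 3.64 and 8.98 in replicates 1, 2 and 3 at an intergenic summit 614 bp upstream of its start. nrv3, a beta subunit of the sodium pump, had 6.52, 4.15 and 6.81 at a summit 17255 bp from its start. corto, a chromatin factor that works with Polycomb and trithorax proteins, had 4.26, 2.68 and 9.42. not, the ubiquitin protease of the SAGA complex, was the exception to the order, with 4.30, 4.81 and 5.79, lowest in replicate 1. Cerk, ceramide kinase, had 3 sites in the window and 4.08, 3.44 and 7.60. CG33494, ics and CG32486 had means of 5.57, 6.27 and 4.86. The start nearest to this summit in CG32486 was that of CG16753, 5172 bp away. Of the 20 peaks, 14 were intronic and 6 intergenic, 5 had several sites, and 13 had a site centre within 20 bp of the summit. Replicate 3 gave the highest relative signal for 20 and replicate 2 the lowest for 19 of them. The medians of promoter summits with the site had the same order (3.96, 3.50 and 5.54 in replicates 1, 2 and 3). The order was thus not particular to distal peaks.

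**Figure D1:**
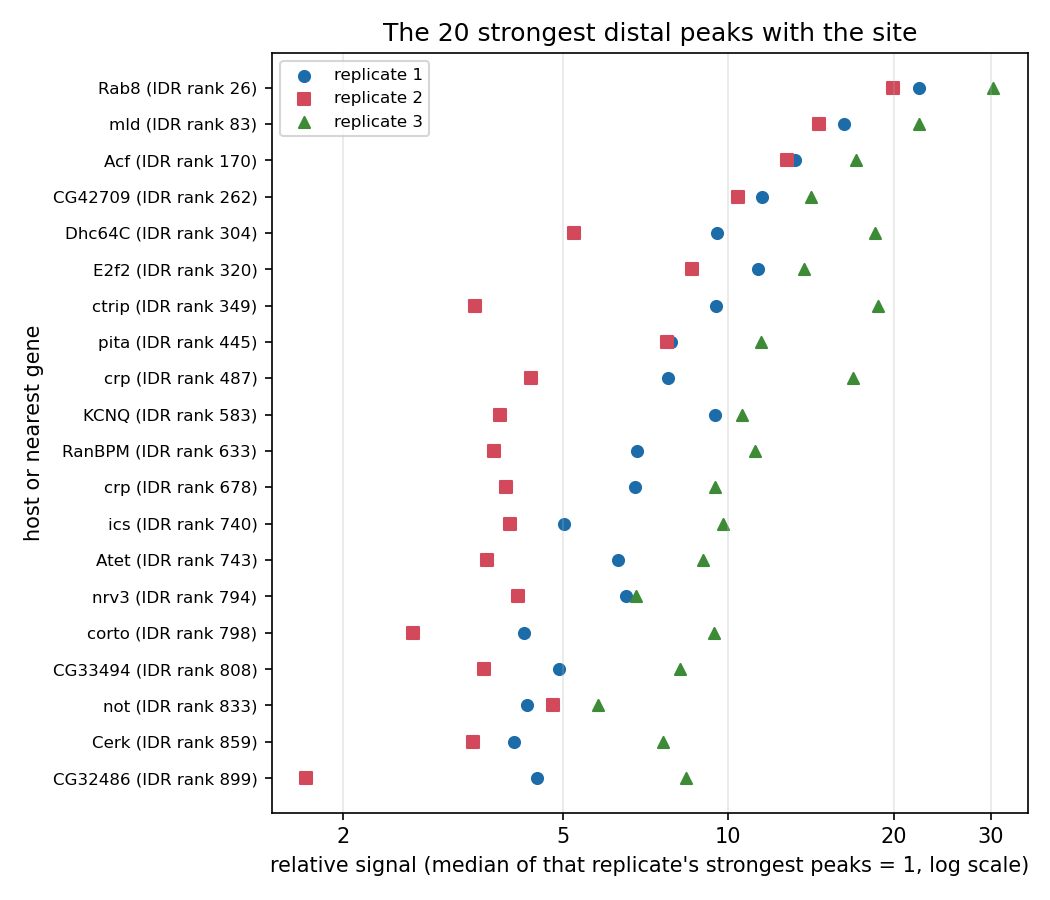
Relative signal (log axis, median of each replicate's 5460 strongest peaks = 1) of the 20 strongest distal peaks with the site that were matched in all replicates, each labelled by host or nearest gene and IDR rank; symbols stand for the 3 replicates. Replicate 3 is the rightmost symbol for all 20 peaks, and replicate 2 the leftmost for 19.

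Most of the peaks lay in introns, mostly first introns, at shares close to those of other distal peaks. Introns held 251 of the 368 summits (68.2%), intergenic sequence 79 (21.5%), coding exons 16, 5′ UTRs 12 and 3′ UTRs 10. Of the 251 intronic summits, 196 (78.1%) were in the first intron of a transcript, and the introns of all 251 had a median length of 6160 bp. For distal summits without the site 547 of 742 (73.7%) were in a first intron, and the median length was 9128.5 bp. Distal summits without the site were in introns at a like share, 742 of 1117 (66.4%), a difference of 1.78 percentage points (Fisher's exact test, two-sided, adjusted p = 0.566 over 4 comparisons). In the replicates' own strongest peaks, the intron share was 67.0% ± 1.58 with the site and 67.8% ± 2.39 without it (SD, n = 3), which is no difference beyond the spread. Coding exons held 4.35% of summits with and 0.627% of those without the site, and intergenic sequence 21.5% and 29.6%. These further shares were not tested.

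The peaks were spread over the chromosome arms, with 60 on 2L, 71 on 2R, 82 on 3L, 89 on 3R, 64 on X and 2 on chromosome 4. Of the chromosome 4 peaks, the stronger lay in Pur-alpha, which encodes a single-stranded DNA and RNA binding protein, and the other nearest to Taf3, a subunit of TFIID. Within the 368, 10 shared a region with another of the set, and 63 shared one with any other IDR summit.

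Many of the peaks were close to start sites although outside the promoter window. The median distance to the nearest protein-coding start was 1559 bp, against 2460 bp for distal summits without the site. Of the 368, 120 (32.6%) were between 500 and 1000 bp away, 98 between 1000 and 2000 bp, and 35 in the farthest class, up to 145413 bp for an intronic peak of Pzl, a Piezo-like channel gene. The median relative signal at 500 to 1000 bp was 1.03, 0.644 and 1.37 in replicates 1, 2 and 3, and at 2000 to 5000 bp it was 0.612, 0.478 and 0.886. Beyond 5000 bp it was 0.709, 0.554 and 1.12, above the class before in every replicate, so signal did not fall steadily with distance. The peaks were downstream of the nearest start in 253 cases (68.8%), against 59.1% of summits without the site, a difference that was not tested. A promoter summit of the IDR list lay within 1000 bp of 57 of them (15.5%), against 72 of 1117 (6.45%) without the site, and whether such peaks belong to the promoter signal was not tested.

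**Figure D2:**
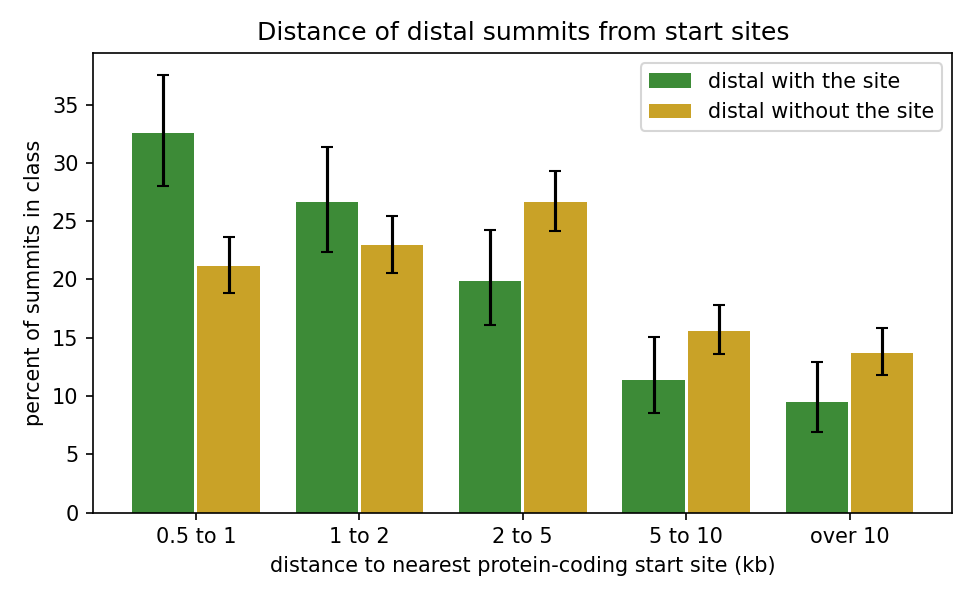
Percent of distal summits with the site (n = 368) and without it (n = 1117) by distance to the nearest protein-coding start site in kb; bars show the share and error bars the 95% Wilson interval. The nearest class holds 32.6% of summits with the site and 21.1% of those without it.

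Of the 368 peaks, 22 (5.98%) lay within 500 bp of the start of another kind of gene, 17 of them genes annotated as ncRNA, 2 tRNA genes and 1 each a pseudogene, snRNA and snoRNA gene. Among distal summits without the site the share was 6.27%. The peak 9 bp upstream of lncRNA:CR43459 was assigned to Fmr1, 14590 bp away, as the nearest protein-coding gene. It had 1.64, 0.360 and 1.61 in replicates 1, 2 and 3, lowest in replicate 2. A peak in an Ubx intron lay 47 bp from the start of asRNA:PS4, with 0.238, 0.375 and 1.22. Another peak assigned to Fmr1, 366 bp upstream of the microRNA gene mir-277, was weak in all replicates, with 0.456, 0.255 and 0.578.

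At the edges of the rule the peaks did not look alike in strength. Just inside the limit on distance were summits 506 bp from the start of Tlk, 510 bp from gcl and 511 bp from MICU3, with relative signals in replicate 3 of 7.34, 1.56 and 3.48. Replicates 1 and 2 gave 3.28 and 2.96 at Tlk, 0.736 and 0.385 at gcl, and 1.55 and 0.638 at MICU3. Just outside it were summits 497 bp from CG46301, 494 bp from gem and 494 bp from chk, with 0.956, 3.66 and 0.0691 in replicate 3. Replicates 1 and 2 gave 0.875 and 0.161 at CG46301, 2.59 and 2.44 at gem, and 0.161 and 1.24 at chk. The chk peak was thus above the median of 1 in replicate 2 only. At the limit on the site, the site reached 50 bp at CG11726 and Rab10 and 49 bp at crp, with replicate 3 signals of 1.34, 0.892 and 0.102. Replicates 1 and 2 gave 1.60 and 1.11 at CG11726, and 0.121 and 0.917 at crp. Rab10 had 0.575 in replicate 2 and no match in replicate 1. The site reached 51 bp at the summits nearest to lwr, crp and Atg17, with 9.86, 4.25 and 1.30 in replicate 3. Replicates 1 and 2 gave 9.10 and 8.12 at lwr, 2.73 and 4.74 at crp, and 1.10 and 0.426 at Atg17. A strong peak near lwr was thus left out by 1 bp.

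Peaks with the site were found in all 3 replicates slightly more often than other distal peaks. A summit within 100 bp was present in the relaxed list of every replicate for 303 of 368 (82.3%), against 856 of 1117 (76.6%) without the site and a background of 81.4% of all IDR summits. The difference of 5.70 points passed the test (Fisher's exact test, two-sided, adjusted p = 0.0323), but the share of the members was near the background. By replicate, 338, 334 and 361 of the 368 were matched in the relaxed lists, and 259, 210 and 339 in the strongest 5460 peaks. All strongest lists held 165 (44.8%) of the peaks with the site and 299 (26.8%) of those without it. Matches are partly built in, because the IDR list is itself a selection for recurring peaks. The call ended with a matching distance of 200 bp (1.31 points, adjusted exact p = 0.569), without replicate 3 (0.255 points, adjusted exact p = 0.936) and without replicate 1 (3.55 points, adjusted exact p = 0.123), and at 50 bp the difference was 16.8 points.

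A single peak, in Doa, a kinase gene, was matched in no replicate, and 4 were matched in 1 replicate each. Those 4 lay at CG31635, cv-c, nmo and Fur2, and they were singled out after their values were seen. CG31635 had 3 sites in a coding exon and 0.985 in replicate 3, and cv-c had 0.595 in the same replicate.

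Against other distal peaks, the signal of peaks with the site was higher in replicates 1 and 3 and lower in replicate 2. The median relative signal was 0.756, 0.592 and 1.17 in replicates 1, 2 and 3 for peaks with the site and 0.490, 0.854 and 0.420 for those without it. The log2 differences of the medians were 0.63, -0.53 and 1.48, a mean of 0.52 ± 1.01 (SD, n = 3; exact sign-flip permutation test over replicates, two-sided, p = 0.5). With 3 replicates this test cannot go below 0.25. The replicates thus gave no common direction, and the mean was 1.05 without replicate 2 and 0.05 without replicate 3.

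The split between the replicates was seen peak by peak. Of the 303 peaks with the site matched in every replicate, 247 (81.5%) had their highest relative signal in replicate 3, 37 in replicate 2 and 19 in replicate 1. Of the 856 without the site, 667 (77.9%) were highest in replicate 2 and 127 in replicate 3. Base composition moved with this: the 101 bp windows held a median of 48.5% G+C with the site and 33.7% without it. Members highest in replicate 3 had a median of 49.5% and those highest in replicate 2 a median of 40.6%. In windows of 40 to 60% G+C the log2 differences were 0.60, -0.33 and 1.02, the same signs at smaller size. In narrower bins, replicates 1 and 3 were higher with the site throughout, but replicate 2 was not evenly lower. Its medians with and without the site were 0.923 and 0.884 below 35% G+C (24 members), and 0.551 and 0.829 from 35 to 45%. From 45 to 55% they were 0.591 and 0.643, and from 55% upwards 0.581 and 0.588. The part of base composition in the result was not tested further.

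Across the members, signal in the replicates ranked alike for replicates 1 and 3 (Spearman's rank correlation 0.835 over 333 peaks), less so for 1 and 2 (0.696 over 307) and least for 2 and 3 (0.573 over 329). These are descriptions over peaks, which share libraries and base composition. Applied to each replicate's own strongest peaks, the rule picked 265, 214 and 475 members, 23.6%, 12.3% and 40.8% of the distal peaks. Replicate 3 thus held the most such peaks, and replicate 2 the fewest, among 1163 and 1740 distal peaks.

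Promoter peaks with the site were stronger than distal ones in every replicate. Their median relative signal was 3.96, 3.50 and 5.54 in replicates 1, 2 and 3, against 0.756, 0.592 and 1.17 at distal sites. The log2 difference, distal minus promoter, was -2.39, -2.56 and -2.24 (mean -2.40 ± 0.159, SD, n = 3; exact sign-flip p = 0.25, the smallest that 3 replicates allow). The difference was far larger than the spread between replicates, although so few replicates cannot give a p below that value. The median IDR rank was 2921 for distal peaks with the site, 3861 for distal peaks without it and 982.5 for promoter peaks with it.

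**Figure D3:**
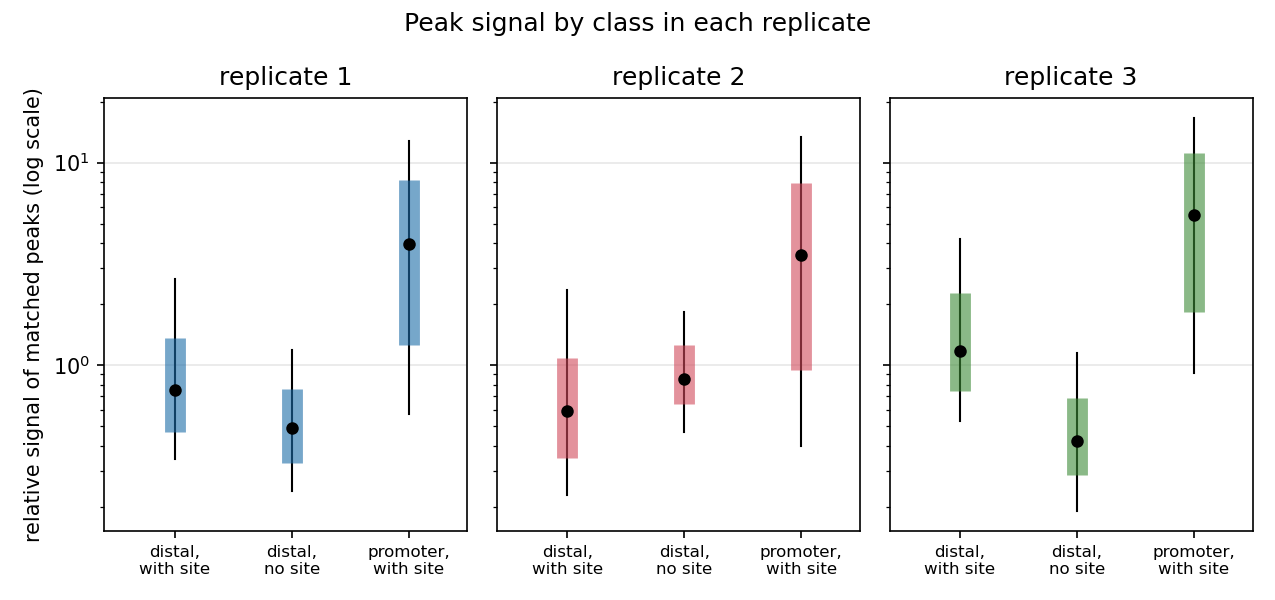
Relative signal (log axis) of IDR summits matched in each replicate, for distal summits with and without the site and promoter summits with it; points are medians, thick bars the 25th to 75th percentile and lines the 10th to 90th percentile. Promoter summits are highest in all replicates, and distal summits with the site are above those without it in replicates 1 and 3 and below them in replicate 2.

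The site lay closer to the summit at distal peaks than at promoters. Its centre was within 20 bp for 229 of 368 (62.2%), against 614 of 1192 promoter summits (51.5%), a difference of 10.7 points (Fisher's exact test, two-sided, adjusted p = 0.00130). The median distance was 15.5 bp at distal and 19.5 bp at promoter summits. Distances were to the nearest copy, and more distal than promoter summits held several copies (14.9% against 9.82%). Summits with a single copy were not compared apart, so the part of copy number was not tested. On the replicates' own summits the shares were 54.3%, 52.3% and 56.8% at distal and 51.7%, 48.0% and 53.2% at promoter peaks, so distal was higher in 3 of 3 by a smaller margin. Without replicate 3 the difference in the IDR list was 9.21 points (adjusted exact p = 0.0520).

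**Figure D4:**
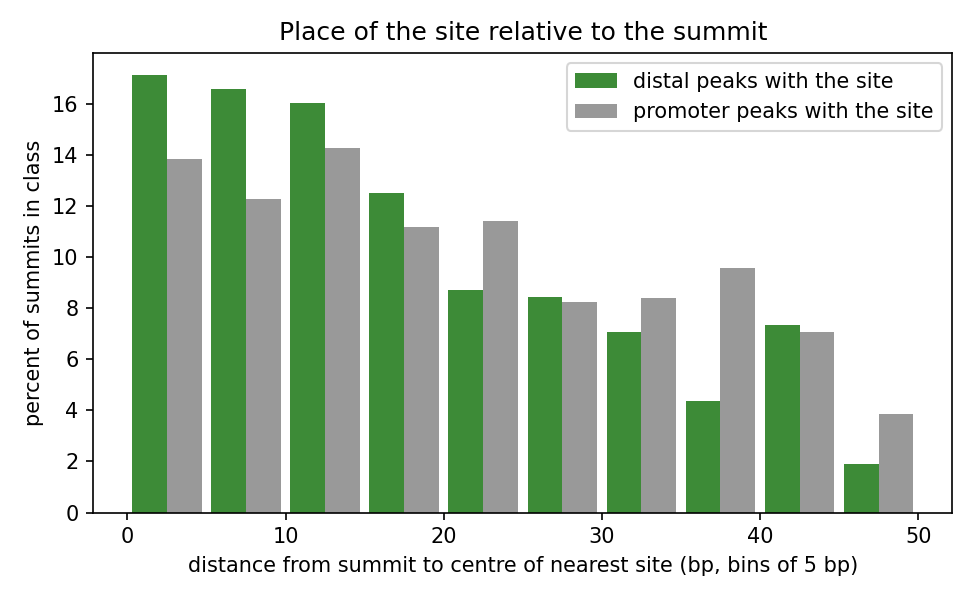
Distance in bp, in bins of 5 bp, from the summit to the centre of the nearest site, as percent of distal (n = 368) and promoter (n = 1192) IDR summits with the site. The distal bars start at 17.1% in the first bin and exceed the promoter bars in each of the first 4 bins, up to 20 bp.

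Several copies of the site were more frequent at distal peaks. Of the 368, 50 had 2 copies and 5 had 3 within 50 bp, together 55 (14.9%), against 117 of 1192 promoter summits (9.82%; difference 5.13 points, Fisher's exact test, two-sided, adjusted p = 0.0152). The replicates' own strongest peaks gave 14.3%, 14.5% and 14.7% at distal and 8.99%, 9.37% and 9.09% at promoter summits, with no overlap between the classes. The first bases of neighbouring copies were a median of 22 bp apart (range 7 to 89 bp over 60 pairs). Peaks with several copies had a median relative signal of 1.20, 0.848 and 2.16 in replicates 1, 2 and 3, and peaks with a single copy 0.709, 0.580 and 1.10. The former were higher in each replicate. With a start window of 1000 bp the difference was 5.11 points and no longer passed (adjusted exact p = 0.0528).

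The bases next to the site differed between copies with and without a summit. On the chromosome arms there were 53810 distal copies of CAGCTG, and 429 of them (0.797%) lay whole within 50 bp of an IDR summit, against 15.4% of promoter copies. With A directly before the site on both strands, ACAGCTGT, 76 of 2500 copies were occupied (3.04%, Wilson interval 2.44 to 3.79%). With A on neither strand it was 121 of 35289 (0.343%). In the strongest peaks of replicates 1, 2 and 3 the shares were 1.96%, 1.60% and 4.12% with A on both strands and 0.255%, 0.187% and 0.470% with A on neither. The difference was 1.70, 1.41 and 3.65 points (mean 2.26 ± 1.22, SD, n = 3; exact sign-flip p = 0.25, the smallest possible), positive in 3 of 3, and the ratio was 8.33 ± 0.570. Copies in these classes were not matched for genomic place or base composition, and the part of either was not tested.

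Of the 10 combinations of the bases before the site on the plus and minus strand, A with T, ACAGCTGA, had the highest occupied share, 3.31% of 4650 copies. ACAGCTGT followed with 3.04%, and TCAGCTGA had 1.60%. The Wilson intervals of the first 2 overlapped (2.83 to 3.87% and 2.44 to 3.79%). In replicates 1, 2 and 3 ACAGCTGA had 2.39%, 1.83% and 4.09%, and ACAGCTGT 1.96%, 1.60% and 4.12%, so their order turned in replicate 3. The lowest shares were 0.110% for GCAGCTGC, 0.0972% for CCAGCTGG and 0.0858% for CCAGCTGC. These rest on 8, 3 and 8 occupied copies, with overlapping intervals, so they are not ranked among themselves. Copies with A or T before the site on both strands were thus at the top, and those with G or C there at the bottom.

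A second base sharpened the split, in a class that was chosen after its values were seen. Where A and then A or T stood directly before the site on both strands, as in the windows at Rab8, mld, Dhc64C and ctrip, 121 of 999 distal copies (12.1%, 10.2 to 14.3%) had an IDR summit. On a single strand it was 196 of 10441 (1.88%) and on neither 112 of 42370 (0.264%). By replicate the share for both strands was 8.01%, 6.01% and 16.1%, and for neither 0.208%, 0.196% and 0.335%. The order of the 3 classes was the same in every replicate. These classes, too, were not matched for genomic place or base composition. The base 2 before the site was A in 60.2% of member sites and in 25.9% of distal copies without any relaxed summit within 200 bp, and at promoter summits it was A in 60.7%, close to the distal value.

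**Figure D5:**
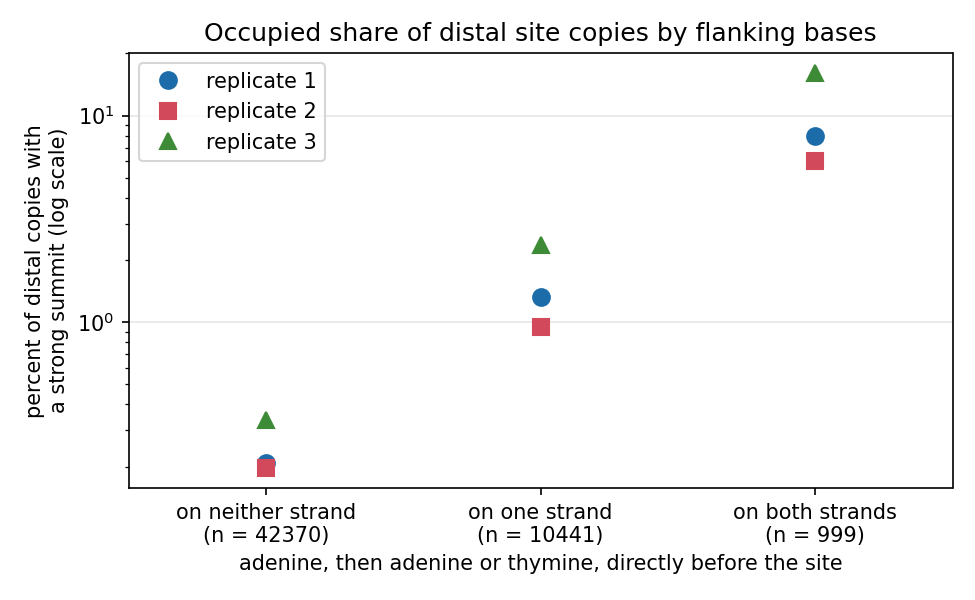
Percent of distal CAGCTG copies (log axis) with one of a replicate's 5460 strongest summits within 50 bp, by the number of strands on which adenine and then adenine or thymine directly precede the site; symbols are the 3 replicates and n is the number of copies. Shares rise from 0.196 to 0.335% on neither strand to 6.01 to 16.1% on both strands.

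Among the members themselves, the flanks of the best site went with signal in replicates 1 and 3 and not in replicate 2. The flank of A and then A or T stood on both strands in 119 of 368 peaks, on a single strand in 174 and on neither in 75. From neither to both strands, the median relative signal was 0.624, 0.765 and 0.914 in replicate 1 and 0.899, 1.12 and 1.68 in replicate 3, but 0.653, 0.580 and 0.573 in replicate 2. Of the members matched in all replicates, 93.0% with the flank on both strands were highest in replicate 3, and 54.4% with it on neither. The peaks in crp at 2L 16285028 and in Hr4, whose sites have G or C on both sides, had no such flank. The crp peak had 0.121, 0.917 and 0.102 in replicates 1, 2 and 3, and that of Hr4, an ecdysone-induced nuclear receptor, 0.863 in replicate 2 and 0.294 in replicate 3 with no match in replicate 1. Both were highest in replicate 2, at values under the median of 1. These 2 peaks do not stand for all 14 members with G or C on both sides of every site, whose medians were 0.476, 0.707 and 0.674. Of the 10 such members matched in all replicates, 4 were highest in replicate 2, 4 in replicate 3 and 2 in replicate 1.

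Sites in coding exons had a summit least often. Of distal copies in introns 1.44% had an IDR summit, of those in 5′ UTRs 1.99%, in 3′ UTRs 0.691%, between genes 0.587% and in coding exons 0.151%. Coding exons held 15943 of the 53810 copies, and no test was run between these places.

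Some other motifs differed in share between distal peaks with and without the site. Of 18 motifs searched whole within 50 bp on both strands, 4 (22.2%) passed by Fisher's exact test with Benjamini-Hochberg adjustment. GAGAGAG, the site of GAGA factor, was at 10.9% of peaks with and 2.86% of those without the site (adjusted exact p = 9.4e-08), and CACACACA at 5.98% and 2.60% (adjusted exact p = 0.0195). TATAAA, at 5.71% and 21.8% (adjusted exact p = 5.3e-13), and CAAATG, at 5.98% and 11.1% (adjusted exact p = 0.0195), were less frequent. In windows of 40 to 60% G+C, a choice made after seeing the data, 0 of 18 passed: GAGAGAG was at 13.3% and 9.38% (adjusted exact p = 0.659), TATAAA at 2.88% and 6.25%, and CACACACA at 6.83% and 7.64%. CAAATG was at 6.12% and 10.8% there, a difference of -4.65 points against -5.12 points over all windows, with fewer windows compared (278 and 288; adjusted exact p = 0.630).

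GAGAGAG was at 3.24% of all IDR summits, 4.45% of promoter summits with CAGCTG, and 0.957% of unoccupied distal copies, whose windows were not matched for base composition. In the 40 members that held it, its centre was a median of 30 bp from the centre of the nearest site. Their median relative signal was 1.04, 0.745 and 1.62 in replicates 1, 2 and 3, and 0.736, 0.581 and 1.16 in the others, higher in each replicate. The motif was found, among others, at crp, Antp, Eip75B, osa, Imp, rdx, aPKC, mam and Ten-m. The promoter motif TATCGATA, the DRE, was at 1.36% of members and 8.89% of promoter summits with the site, and CGATA, the BEAF-32 site, at 12.8% and 32.9%. Distal summits without the site had them at 0.537% and 10.5%. CACCTG and CACGTG, E-boxes with other centres, were at 3.80% and 2.45% of members. They were at 3.58% and 0.985% of distal summits without the site and at 4.34% and 1.56% of all IDR summits. Neither difference from distal summits without the site passed the test. With the site asked for within 25 bp, CACGTG did pass. It was then at 3.59% of 251 summits with the site and 0.891% of 1234 without it (Fisher's exact test, two-sided, adjusted exact p = 0.0176).

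The peaks were assigned to 316 genes, 2.26% of the 13968 protein-coding genes, by host gene or else nearest start. Of these, 250 held a peak inside the gene, and 37 had several. Host genes were long, with a median of 16314.5 bp against 2164.5 bp for all protein-coding genes, but host genes of distal summits without the site were longer still (18598.5 bp). The share of genes with such a peak was 0.678% up to 5000 bp in length, 5.26% up to 20000, 10.0% up to 50000 and 14.1% above that. For distal summits without the site it rose likewise, from 2.03% to 32.9%. Of the 316 genes, 184 (58.2%) also had an IDR summit at a promoter of their own, against 33.3% of all genes and 44.6% of the genes of distal summits without the site. With that last set, which held 771 genes, 119 genes were shared, 37.7% of the genes with the site and 15.4% of those without it.

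The largest number of peaks was at atos, a regulator of macrophage tissue invasion, with 6. Its strongest summit (2R 11635412) had 1.33, 1.17 and 3.84 in replicates 1, 2 and 3, and the lowest in IDR rank (2R 11630881) no match in replicate 1, 0.221 in replicate 2 and 1.09 in replicate 3. All 6 lay in introns. The tagged gene crp came next, with 4 of its 16 IDR summits, all in introns. At the strongest (2L 16286161, 1569 bp from the start) relative signal was 7.77, 4.38 and 16.9. At 2L 16271591, where the nearest start was that of CG4935, 9450 bp away, relative signal was 6.78, 3.94 and 9.44. At 2L 16282963 it was 0.419, 0.352 and 0.390, about equal in the replicates. Whether a tagged extra copy of the gene adds signal at this locus was not tested.

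Another 9 genes had 3 peaks each. ctrip had summits with 9.51, 3.46 and 18.7, and 2 weaker ones that were not matched in replicate 1. At PAN3, of the deadenylase complex that shortens mRNA tails, the 3 summits had replicate 3 signals of 3.72, 2.30 and 1.75, each lowest in replicate 2 (0.837, 0.271 and 0.358). Those in the neighbouring gene CG32486 had 4.49, 1.71 and 8.38, and 1.75, 2.53 and 2.35, with no common order. Antp, the Hox gene of the thorax, had an upstream summit with 0.723, 0.964 and 1.53, and intronic ones 20412 and 7129 bp from a start. The others were Atet, Pits, Glut4EF, Mob2, Fmr1 and raskol, a Ras GTPase-activating protein.

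Genes of the 20 lists drawn up for embryonic tissues and pathways carried distal peaks with the site at differing shares, and the counts below are descriptions without a test. In all, 49 of 482 distinct listed genes (10.2%) had one, against 2.26% of all genes, and many listed genes are long. The RNA-binding list had the highest share, 7 of 31 genes, with a median gene length of 37131 bp. A distal peak without the site was at 13 of these 31. In each of the 20 lists more genes had a distal peak without the site than with it. Over all genes, too, the set without the site was larger, 771 genes against 316, so these shares are not particular to peaks with the site. Sxl, the switch of sex determination, had 1.51, 1.19 and 1.69 in replicates 1, 2 and 3 at the stronger summit in its first intron (X 7095505), close in all. Imp, an mRNA-binding protein of growth control, had 0.914, 0.745 and 1.62, and how, an RNA-binding protein of muscle and tendon, 0.319, 0.836 and 0.280, highest in replicate 2. heph, Fmr1, brat and pum were the other members.

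Chromatin regulators had 6 of 37. osa, a subunit of the Brahma remodelling complex, had 1.41, 1.30 and 2.74 in its second intron (3R 17713057), and brm, its ATPase, 0.622, 0.393 and 1.39 in the 3′ UTR. The stronger of the peaks at tara, a cofactor of the trithorax group, had 0.981, 0.233 and 1.69. All 3 were highest in replicate 3 and lowest in replicate 2. corto, sbb and psq completed the list. Of 32 cytoskeleton genes 4 had a peak, with chic, profilin, at 2.47, 1.82 and 2.68 and trio at 0.460, 0.944 and 0.434, and ena and msn the others.

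Of 30 axon guidance and neuronal adhesion genes 5 had a peak, Toll-6, Dscam1, Ten-m, otk and Nrg. Dscam1, an adhesion receptor with many isoforms, had at its stronger summit 0.861, 0.558 and 1.22, and the teneurin Ten-m 0.366, 0.368 and 0.755. These were below the list median of 1 in all but replicate 3 of Dscam1. Of the 25 genes on the synapse and ion channel list 1 had a peak, Ca-alpha1D, a calcium channel subunit. The potassium channel gene KCNQ, host of one of the strongest peaks though mlt has the nearest start, is not on that list.

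Hormone and growth signalling genes had 3 of 20 for the ecdysone response and 3 of 22 for insulin and TOR. Eip75B, the nuclear receptor E75, had 0.930, 0.636 and 1.01 in replicates 1, 2 and 3, and the ecdysone receptor EcR 0.292 and 0.835 in replicates 2 and 3 with no match in replicate 1. InR, the insulin receptor, had 1.07, 1.75 and 1.44 in a coding exon, highest in replicate 2, and S6k, the TOR target kinase, 0.345, 0.422 and 1.04. The stronger peak at sima, the fly hypoxia-inducible factor, had 0.574, 1.00 and 0.602. These lists thus held peaks highest in replicate 2 and peaks highest in replicate 3.

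In the other signalling lists the EGFR and FGFR pathway had 3 of 26, with the kinase Raf at 1.31, 0.777 and 3.35, the ETS repressor aop at 0.696, 1.92 and 0.747 and the ligand vn at 0.641, 0.443 and 1.16. The Notch list had 2 of 23 (numb and mam), Wnt 2 of 23 (nmo and sgg), Hedgehog 2 of 14 (rdx and dally), Hippo 2 of 20 (kibra and msn) and the BMP and activin list 1 of 21 (dally). Raf and vn were highest in replicate 3, and aop in replicate 2.

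Of 32 Hox and segmentation genes 3 had a peak. hth, the Hox cofactor, had 1.42, 2.24 and 2.74, the strongest of the list, ahead of Antp and Ubx. The bHLH list had 3 of 44, crp, sima and Mnt, a repressor of the Max network, whose peak lay 15031 bp from its start with 2.00, 1.46 and 2.74. Muscle had 3 of 26 (mys, sls and how) and polarity and junctions 3 of 29 (aPKC, baz and stan). No gene of the tracheal list (0 of 28), of JAK/STAT (0 of 11) or of the GATA list (0 of 15) had a distal peak with the site, although 6, 5 and 1 of them had a distal peak without it.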

How the data were processed

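Peak lists of 3 biological replicates were analysed on dm6. The authors deposited a signal value per peak, on a scale that is read here only within a list. Peak signal can grow with read depth, so it was divided by a median of its own list. The sources used here give no aligner, caller, settings or IDR cut-off. Relaxed lists, as deposited, held 30000, 28713 and 30000 peaks in replicates 1, 2 and 3, and the IDR list held 5460. The dm3 lists and the pooled relaxed list were not used.

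Summits were the deposited offset added to the peak start, in positions counted from 1. Start sites (19275 distinct) came from Ensembl release 115, sequence from the RefSeq copy of dm6. Places were called in the order 5′ UTR, coding exon, 3′ UTR, intron, intergenic. The host gene was the protein-coding gene around the summit, the one with the nearest start where several were, and otherwise the gene with the nearest start. Summits within 100 bp were matched, and relative signal was the deposited signal over the median of the replicate's 5460 strongest peaks. Fisher's exact test (two-sided) compared shares, with Benjamini-Hochberg adjustment at 0.05 over 4 comparisons or 18 motifs. Summits are not replicates, so these p-values do not measure the spread between embryo collections, and the values of each replicate are given beside them. Differences over replicates used an exact sign-flip permutation test, two-sided (smallest p 0.25). Wilson intervals (95%) cover only counting error.

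The genes named are crp, those of the 20 strongest peaks matched in all replicates, the 12 with most peaks, up to 4 of each list and those at the limits of the rule. Others are named where a count or place singled them out after their values were seen. Of the gene lists, 30 entries matched no gene and were left out. The set of peaks and the lists were chosen with earlier results of these data known. Alternatives changed the windows, start sites, matching distance, peak number and scaling, merged regions or left out each replicate. The site search, matching and motif tests were tested on simulated data. The simulated sequence had the same base composition in both classes, so that check does not cover the difference in G+C between the real ones. Tests ran in scipy 1.17.1 and statsmodels 0.14.6 under Python 3.11.15, with numpy 2.4.6, and plots in matplotlib 3.10.9.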

Additional observations from a re-analysis of the deposited data

How the results depend on the processing

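Of 129 alternative values, 106 kept their direction and their side of the threshold, 16 lost a call, 3 turned in sign and 4 counts moved by over 1.5 times. The sign-flip comparisons over replicates could not change side, because their p cannot fall below 0.25, so they count as kept wherever the sign held. The signal difference against other distal peaks counts as kept without replicate 3, at 0.0494 against 0.525 over all replicates. The number of distal peaks with the site was 174 to 248 when each replicate was left out, with 189 without replicate 1 and 174 without replicate 3. Those lists asked for a strong peak in both remaining replicates and were shorter by construction. The difference in intron share, 1.78 points and never past the threshold, was -4.15 to 0.158 points when each replicate was left out, and turned in sign without replicate 2 (-0.761) and replicate 3 (-4.15). The difference in replicate match lost its call with a start window of 1000 bp (5.48 points, adjusted exact p = 0.0893), a site within 25 bp (4.84) and a match within 200 bp (1.31), and ranged from 0.255 to 9.74 points over left-out replicates. That in several sites lost it at 1000 bp (5.11), and that in site position was 8.39 to 10.8 points over left-out replicates and lost its call without replicate 3 (9.21). The number of motifs past the threshold was 2 to 4 over left-out replicates and 0 in windows of 40 to 60% G+C, where CACACACA turned to -0.804 points. The cause was not tested. The flank difference ranged from 0.879 points with the 2000 strongest peaks to 5.16 with whole relaxed lists. No paired analysis was possible because the samples form 1 group. The depth of the replicates is unknown, so weak peaks missing from a list cannot be told from unbound sites.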
